A study of Mus musculus with 10 samples.

Results

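Mouse genes whose names consist of Zfp and a number encode zinc finger proteins. Of 305 such names with a row of their own in the RNA table of 2.5-month cortex, 250 reached FPKM (fragments per kilobase of transcript, scaled to the mapped fragments of a library) of 1 in at least 3 of the 6 libraries, and these 250 are described here. The table held 23283 gene names and joined loci in all. Zfp36, which encodes a CCCH-type RNA-binding protein, was left out. The choice rested on FPKM levels in the 6 libraries, without regard to group. Just inside it lay Zfp850 and Zfp455, whose third-highest values were 1.01 and 1.02 FPKM, and just outside lay Zfp937 and Zfp599, at 0.955 and 0.907 FPKM. A level of FPKM 1 was reached in all 6 libraries by 228 of the 250 genes. One gene, Zfp449, had every control library under FPKM 1 (0.930, 0.986 and 0.907). It entered only through its knockout libraries (1.06, 1.23 and 1.30), so that the choice favoured a rise of this gene, and nothing is read from its change. All 3 control libraries reached FPKM 1 for 232 of the 250 genes. The others needed at least 1 knockout library to enter, among them Zfp648 and Zfp503 (2 control libraries at FPKM 1) and Zfp459 (1). For these too the choice could favour a rise.

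A classical zinc finger is a short loop of protein held by a zinc ion between a pair of cysteines and a pair of histidines, and fingers in a row read a DNA sequence. Many of these proteins also carry a KRAB box, a short stretch near the start of the protein that binds the corepressor TRIM28 (KAP1). TRIM28 in turn brings the histone H3 lysine 9 methyltransferase SETDB1 and heterochromatin protein to the DNA, and many KRAB zinc finger proteins silence transposable elements in this way. The genes of KRAB zinc finger proteins arose largely by tandem duplication and often lie side by side. NSD1, the enzyme deleted in the mice, methylates lysine 36 of histone H3.

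RNA was sequenced from somatosensory cortex of mice with conditional deletion of Nsd1. The Nex model, sampled at 2.5 months, comprised 3 controls (Nex_Ctrl replicates 1 and 2 with genotype Nsd1fl/+ and replicate 3 with Nsd1fl/fl) and 3 knockouts (Nex_cKO, genotype Nsd1Nex-cKO). The Camk2a model, sampled at 3 months, comprised 2 controls (Camk2a_Ctrl, Nsd1fl/+) and 2 knockouts (Camk2a_cKO, Nsd1Camk2a-cKO). Nex-Cre acts in excitatory neurons from soon after they are born and Camk2a-Cre in excitatory neurons after birth, so every other cell type of the tissue keeps Nsd1. The heterozygous controls carried 1 floxed allele, and the labels do not say whether any control carried Cre or whether each library came from a separate mouse. P-values therefore measure the spread between these libraries, which may be technical.

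The targeted gene stood in the 2.5-month table only in a row joined with its neighbour Prelid1, at 129.9, 125.1 and 141.4 FPKM in controls and 91.0, 118.1 and 105.6 FPKM in knockouts. In the 3-month table Nsd1 was at 5.61 and 8.87 FPKM in controls and 4.31 and 4.99 FPKM in knockouts, with no overlap in either table. Read totals recovered for the 3-month libraries ran from 16901717 to 20074933, and the 250 genes had 0 to 19018 reads per library there, with a median of 252.5. The depth behind the 2.5-month values is unknown. Nex_cKO replicate 3 stood apart, since rows without a gene name held 41.6% of its summed FPKM against 2.33% to 19.4% in the other Nex libraries. Markers of excitatory neurons were abundant, with Slc17a7, the vesicular glutamate transporter, at a mean of 571.5 FPKM in Nex controls. In bulk tissue, fewer cells of a type and less RNA per cell cannot be told apart.

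By name, 249 of the 250 genes were found in the 3-month table, which gives positions (GRCm38). The exception was Zfp191. The 3-month table classed 248 of the 249 as protein coding and Zfp939 as a transcribed pseudogene. Chromosome 7 held 63 of them, chromosome 17 held 27, and chromosomes 8 and 13 held 18 each. Chains of 3 or more protein-coding Zfp genes with starts at most 250 kb apart, expressed or not, numbered 31. They held 106 of the 250 genes, called clustered here, and 142 genes stood in shorter chains or by themselves, called lone.

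In the longest reading frames of the GENCODE M21 transcripts, 248 of the genes had a median of 9 classical fingers, with a range of 0 to 33. Zfp619 had the most, and the 6 with none by the pattern used were Zfp326, Zfp330, Zfp365, Zfp503, Zfp703 and Zfp839. A KRAB core, searched as the residues leucine, tyrosine, any 2, valine, methionine, any and glutamate, was found in 100 genes and not in 148. Of the clustered genes 65 had it and 41 did not, against 35 and 107 of the lone genes. Genes with the KRAB core had a median of 11.5 fingers and genes without it 7. This is a narrow pattern, and a gene without a match may still carry a diverged box. Allowing leucine, isoleucine, valine or threonine for methionine and aspartate or glycine for glutamate raised the number with a match to 110, among them Zfp445 and Zfp189.

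Most of the genes were expressed at low levels. The control mean over the 3 Nex controls had a median of 4.09 FPKM, with quartiles of 2.19 and 6.98, against 10.1 FPKM over all tested genes. It was 2.85 FPKM for genes with the KRAB core and 5.15 FPKM for those without. Zfp365, which encodes the DISC1-binding protein DBZ, was the highest at 176.4 ± 5.12 FPKM (SD, n = 3). It alone made up 9.97% to 10.5% of the summed FPKM of the 250 genes in Nex controls. Next came Zfp771 (69.2 ± 4.62 FPKM), Zfp385a (41.2 ± 4.48 FPKM), Zfp706 (37.5 ± 1.45 FPKM) and Zfp428 (33.0 ± 4.07 FPKM), each over 3 controls.

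The start-site windows of the genes with the largest changes show that both CpG-poor and CpG-rich windows were among them. A RefSeq window (GRCm38.p6) of 250 bases before to 50 bases after the start was given for 203 of the 250 genes. The windows of these 203 held a median of 16 CpG dinucleotides, the letters CG, which read the same on both strands. The median over the windows of 27025 genes was 7. At least 15 CpG were found in 115 of the 203 (56.65%) and in 35.2% of the windows of the 27025 genes. The 27025 genes were not chosen for expression, and the first listed window of each was taken. For the 203 the window nearest the deposited gene start was taken, so nothing is read from the difference. The median was 11 for genes with the KRAB core and 19 for those without. Of the genes past the threshold described next, those with a window and the 2 largest rises and 2 largest falls are printed 5′ to 3′ along the gene's strand, with CG in capitals. They lie at chr1:154200937-154201236 (plus strand, Zfp648), chr14:21989552-21989851 (minus strand, Zfp503), chr11:58306819-58307118 (plus strand, Zfp692) and chr17:24669437-24669736 (plus strand, Zfp598).
Zfp648: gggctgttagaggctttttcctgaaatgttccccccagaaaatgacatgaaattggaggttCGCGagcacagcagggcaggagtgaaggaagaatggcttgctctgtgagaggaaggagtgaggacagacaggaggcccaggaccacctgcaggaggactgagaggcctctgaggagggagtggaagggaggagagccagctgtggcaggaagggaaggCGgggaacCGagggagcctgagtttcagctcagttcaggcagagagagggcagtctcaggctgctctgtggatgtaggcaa
Zfp503: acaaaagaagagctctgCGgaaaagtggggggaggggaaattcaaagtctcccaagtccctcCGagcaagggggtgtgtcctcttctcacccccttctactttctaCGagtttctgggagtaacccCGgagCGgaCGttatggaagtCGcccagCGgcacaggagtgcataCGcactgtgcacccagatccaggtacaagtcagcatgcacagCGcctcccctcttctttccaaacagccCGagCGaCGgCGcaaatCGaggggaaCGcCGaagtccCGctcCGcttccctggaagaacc
Zfp692: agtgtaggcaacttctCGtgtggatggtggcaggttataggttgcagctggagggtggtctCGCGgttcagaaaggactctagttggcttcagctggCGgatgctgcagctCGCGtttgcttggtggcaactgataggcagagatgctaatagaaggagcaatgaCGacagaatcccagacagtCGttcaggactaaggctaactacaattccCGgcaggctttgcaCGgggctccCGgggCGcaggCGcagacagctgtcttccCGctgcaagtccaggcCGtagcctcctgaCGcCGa
Zfp598: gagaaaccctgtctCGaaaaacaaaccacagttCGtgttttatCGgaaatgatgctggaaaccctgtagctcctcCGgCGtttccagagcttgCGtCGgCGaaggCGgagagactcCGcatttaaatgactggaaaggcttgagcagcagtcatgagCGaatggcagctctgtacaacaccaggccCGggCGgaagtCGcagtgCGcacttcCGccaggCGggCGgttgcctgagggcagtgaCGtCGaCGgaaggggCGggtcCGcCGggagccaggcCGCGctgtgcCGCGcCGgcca
The Zfp648 window held 4 CpG, the Zfp503 window 19, the Zfp692 window 17 and the Zfp598 window 29.

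The first comparison asked which of these genes differ in adult cortex after deletion in newborn excitatory neurons. In Nex_cKO cortex 4 of the 250 genes were higher (Zfp648, Zfp503, Zfp110 and Zfp955b) and 6 were lower (Zfp395, Zfp692, Zfp598, Zfp385b, Zfp868 and Zfp365). These are the genes with a Benjamini-Hochberg adjusted p under 0.05 from limma on log2(FPKM + 1) over all 12528 tested genes. Over all tested genes 8.53% were called, 4.47% higher and 4.06% lower, against 4% of the 250. Since the genes were chosen on levels in these same libraries, nothing is read from that difference. Zfp648 and Zfp503 had 2 control libraries at FPKM 1, so their entry rested in part on the knockout libraries in which they are high. Genes near 0 in controls, which enter the whole-table test only through a rise, are also scarce among the 250, whose lowest control mean was 0.826 FPKM. Of the tested genes whose controls averaged FPKM 1 or more, 2.54% were higher and 4.19% lower.

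**Figure D1:**
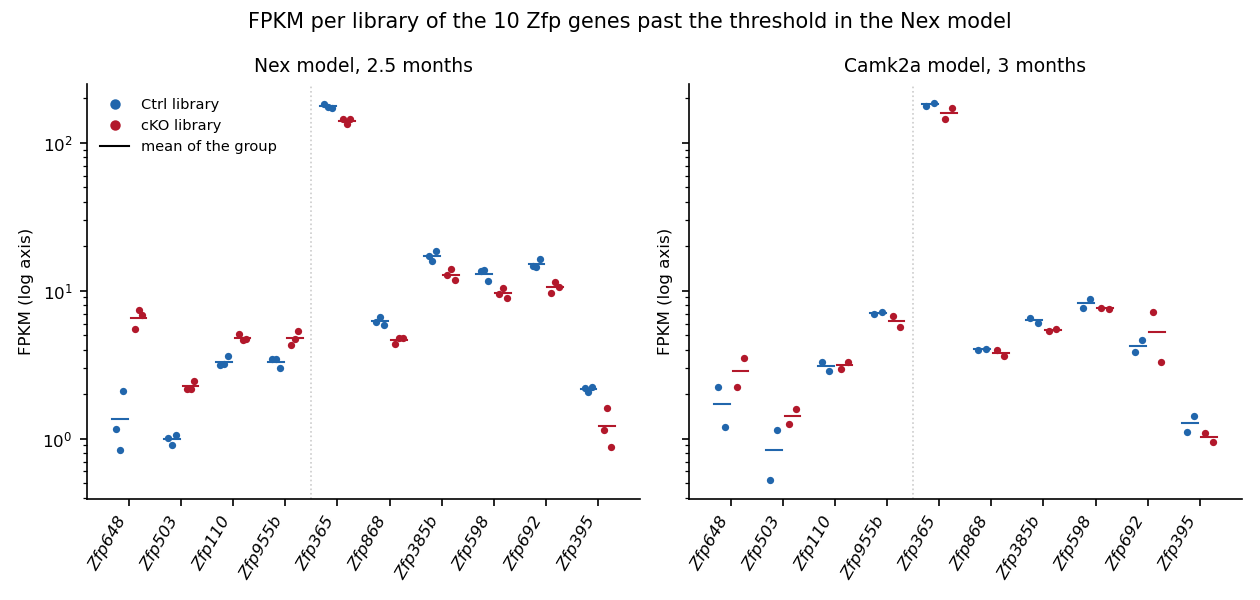
FPKM per library (log axis) of the 10 Zfp genes with an adjusted p under 0.05 in the Nex model, in the Nex libraries (left) and the Camk2a libraries (right); points are libraries, short lines group means. In the Nex model the Ctrl and cKO points of each gene do not overlap, and Zfp648 shows the widest gap (0.844 to 2.09 against 5.51 to 7.37 FPKM).

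The largest rise belonged to Zfp648 (chr1:154201187-154205689), a lone gene with 10 fingers and no KRAB core. Its FPKM was 1.16, 0.844 and 2.09 in Nex_Ctrl replicates 1 to 3 and 5.51, 7.37 and 6.87 in Nex_cKO replicates 1 to 3. All knockout libraries lay above all controls, by a ratio of means of 4.83 and a log2 change of 1.71 (SE 0.19, adjusted p = 0.000661). A second row of the same name had lower levels, 0.353, 0.698 and 0.605 FPKM in controls and 2.64, 2.92 and 2.81 FPKM in knockouts, and its groups did not overlap either. None of the 3 other tested genes that start within 500 kb was called.

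Zfp503 (chr14:21983959-21989601), also known as Nolz1 and known for its role in development of the striatum, had the second-largest rise. It was at 1.01, 0.911 and 1.06 FPKM in controls and 2.15, 2.18 and 2.47 FPKM in knockouts. The ratio of means was 2.29 and the log2 change 0.71 (SE 0.11, adjusted p = 0.00394). Of the 4 tested genes starting within 500 kb, 1 was higher, Dupd1. Zfp703, the closest relative of Zfp503, was at 19.7 ± 0.24 FPKM in controls and 18.9 ± 2.22 FPKM in knockouts (SD, n = 3), and did not pass (adjusted p = 0.73 in the limma fit).

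Zfp110 (chr7:12834761-12850577) encodes NRIF, which interacts with the p75 neurotrophin receptor. It was at 3.14, 3.20 and 3.62 FPKM in controls and 5.11, 4.65 and 4.72 FPKM in knockouts, a log2 change of 0.43 (SE 0.09, adjusted p = 0.0253). The fourth higher gene was Zfp955b (chr17:33289649-33303196), a clustered gene with the KRAB core and 10 fingers. It was at 3.47, 3.46 and 3.00 FPKM in controls and 4.28, 4.68 and 5.38 FPKM in knockouts, a log2 change of 0.42 (SE 0.11, adjusted p = 0.0462). A second row of Zfp955b had overlapping groups, at 0.953, 0.861 and 0.886 FPKM in controls and 0.985, 0.605 and 1.085 FPKM in knockouts. With its rows summed Zfp955b did not pass (limma, adjusted p = 0.076). The call on Zfp955b was lost in 10 of 14 alternative fits and that on Zfp110 in 5 of 14, while Zfp648 and Zfp503 passed in every one of 15 and 14.

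Of the lower genes, 4 averaged 10 FPKM or more in controls. Zfp365 (chr10:67886103-67912662) was at 182, 175 and 172 FPKM in controls and 144, 134 and 146 FPKM in knockouts, a log2 change of -0.32 (SE 0.07, adjusted p = 0.0322). No knockout library reached the lowest control. Its log2 change was -0.17 after quantile normalization (adjusted p = 0.3). A second row of Zfp365 had overlapping groups, at 3.942, 6.448 and 2.485 FPKM in controls and 6.674, 4.153 and 11.33 FPKM in knockouts. With its rows summed the log2 change of Zfp365 was -0.28 and did not pass (limma, adjusted p = 0.0646). Zfp692 (chr11:58307069-58314627) was at 14.7, 14.4 and 16.3 FPKM in controls and 9.68, 11.4 and 10.6 FPKM in knockouts, a log2 change of -0.48 (SE 0.09, adjusted p = 0.01). Its call was lost in 1 of 15 alternative fits, without Nex_Ctrl replicate 3 (adjusted p = 0.053).

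Zfp598 (chr17:24669752-24682015) encodes a ubiquitin ligase that senses collided ribosomes. It was at 13.6, 13.7 and 11.6 FPKM in controls and 9.43, 10.4 and 8.95 FPKM in knockouts, a log2 change of -0.40 (SE 0.09, adjusted p = 0.032). Zfp385b (chr2:77410634-77819639) was at 17.3, 15.8 and 18.6 FPKM in controls and 12.8, 14.0 and 11.8 FPKM in knockouts, a log2 change of -0.40 (SE 0.09, adjusted p = 0.0319). Both genes are lone and lack the KRAB core. Zfp385a, a relative of Zfp385b, was at 46.3, 39.3 and 37.9 FPKM in controls and 38.7, 42.3 and 28.4 FPKM in knockouts, with overlapping groups (adjusted p = 0.477).

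The remaining falls were at lower levels. Zfp868 (chr8:69610857-69625548), a clustered gene with the KRAB core, was at 6.18, 6.66 and 5.85 FPKM in controls and 4.35, 4.81 and 4.79 FPKM in knockouts (log2 change -0.35, SE 0.09, adjusted p = 0.0462). Zfp395 (chr14:65358389-65398930) was at 2.21, 2.07 and 2.25 FPKM in controls and 1.14, 1.61 and 0.873 FPKM in knockouts (log2 change -0.54, SE 0.14, adjusted p = 0.0491). Its human counterpart was described as binding the promoter of the Huntington disease gene. The calls on Zfp868, Zfp395 and Zfp365 were each lost in 9 alternative fits, that on Zfp598 in 6 and that on Zfp385b in 5, of 14 or 15. Without Nex_cKO replicate 3 the calls on Zfp395 (adjusted p = 0.0802), Zfp598 (0.0527) and Zfp955b (0.0802) were lost and Zfp771 was called (log2 change -0.46, adjusted p = 0.0137).

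Cell type markers also differed between the same libraries. The 11 excitatory neuron markers summed to 789.9 to 834.0 FPKM in controls and 660.5 to 793.6 FPKM in knockouts, with 6 lower and 1 higher (Neurod2). Of 7 GABAergic markers 1 was higher (Gad2, 14.2 to 22.5 FPKM), as was 1 of 6 astrocyte markers (Gfap, 25.9 to 45.9 FPKM) and 1 of 7 microglial markers (Trem2, 11.7 to 18.1 FPKM). Changes were above 0 for 4 of 7 GABAergic, 4 of 6 astrocyte and all 7 microglial markers. The GABAergic sum was 712 to 831 FPKM in controls and 511 to 820 FPKM in knockouts. For astrocyte markers it was 490 to 540 and 516 to 627 FPKM, and for microglial markers 145 to 173 and 170 to 189 FPKM. Among all tested genes 8.53% were called. Of 7 endothelial markers 1 was lower (Cldn5, 39.9 to 25.5 FPKM), and none of 8 oligodendrocyte markers passed, though their sum went from 1416 to 1532 FPKM in controls to 1085 to 1319 FPKM in knockouts. The part of these shifts in the Zfp changes was not tested.

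Of the 28 genes listed for a known role, 1 was higher (Zfp503) and 2 were lower (Zfp365 and Zfp385b). The knockout libraries lay wholly above the controls for 4 of the 28 and wholly below for 3, and the groups of 21 overlapped. Among all tested genes 8.53% were called, 11.5% lay wholly above and 18.9% wholly below, so nothing is read from these counts. Zfp57, which protects imprinted DNA methylation, was at 3.74, 2.96 and 3.56 FPKM in controls and 4.34, 3.67 and 6.28 FPKM in knockouts (adjusted p = 0.226). Zfp445, its partner in imprinting, was at 26.3, 26.2 and 25.9 FPKM in controls and 26.1, 25.5 and 30.5 FPKM in knockouts (adjusted p = 0.706). Both had their highest value in Nex_cKO replicate 3, and their groups overlapped. Zfp809, which silences retroviral DNA, was at 5.04, 4.88 and 4.78 FPKM in controls and 3.66, 4.67 and 5.37 FPKM in knockouts (adjusted p = 0.691).

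Among regulators of neural development, Zfp423 was at 3.28, 3.40 and 3.39 FPKM in controls and 4.02, 4.82 and 3.86 FPKM in knockouts (log2 change 0.26, adjusted p = 0.168). Zfp462 was at 4.37, 4.34 and 3.48 FPKM in controls and 5.72, 4.40 and 4.85 FPKM in knockouts (log2 change 0.24, adjusted p = 0.265). Every knockout library of these 2 genes lay above the controls, but the adjusted p missed the threshold. Zfp335, needed for neural progenitor renewal, had all knockout libraries below the controls (7.86, 7.90 and 7.86 against 5.59, 6.58 and 7.56 FPKM, adjusted p = 0.222). Zfp521, Zfp536, Zfp292, Zfp148 and Zfp281 had overlapping groups, with adjusted p from 0.338 to 0.895. Zfp771, the second most abundant gene, was lower in every knockout library (72.5, 63.9 and 71.2 against 46.3, 54.1 and 61.2 FPKM) without passing (log2 change -0.36, SE 0.11, adjusted p = 0.0729).

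Most genes of the family changed little on the log2(FPKM + 1) scale, which understates the fold of low genes. The median log2 change over the 250 genes was 0.03 (quartiles -0.06 and 0.12), with 152 above 0. Over all tested genes it was -0.04 (quartiles -0.16 and 0.08), with 5071 of 12528 above 0. A change beyond 0.5 on the log2 scale was seen in 4 of the 250 genes, and in 6.89% of all tested genes. The median 95% interval of a gene's change was ±0.25 around its value. For 214 of the 250 genes, and 9193 of all 12528 tested genes, the whole interval lay within 0.5 of no change. An unadjusted p under 0.05 was found for 28 of the 250 (11.2%), and for 23.5% of all tested genes. Knockout libraries lay wholly above the controls for 29 of the 250 genes and wholly below for 20, where all tested genes gave 11.5% and 18.9%. By level, 4 of the 38 genes averaging 10 FPKM or more in controls were lower and none higher, while 2 of the 57 under FPKM 2 were higher and none lower. All tested genes leaned the same ways, with 372 lower and 55 higher of 6294 at 10 FPKM or more, and 352 higher and 13 lower of 1484 under FPKM 2.

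**Figure D2:**
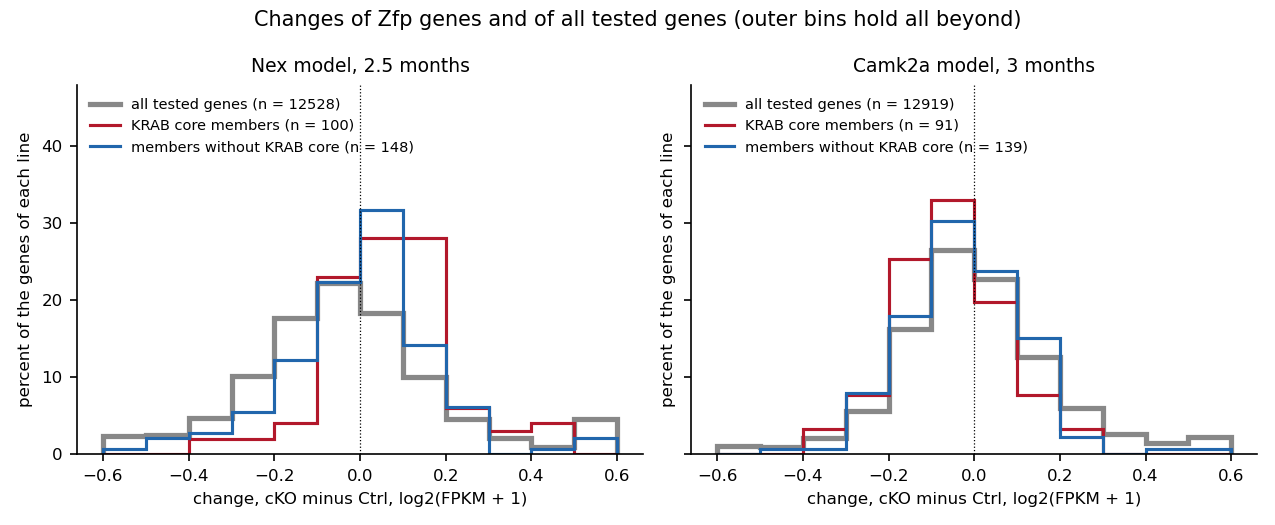
Change in log2(FPKM + 1), cKO minus Ctrl, in bins of 0.1 for Zfp genes with a KRAB core, Zfp genes without it and all tested genes, as a percent of the genes of each line; the outer bins hold everything beyond. In the Nex model (left) the KRAB line sits to the right of the line for all genes (medians 0.07 and -0.04), and in the Camk2a model (right) to its left (-0.05 and -0.01).

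Genes with the KRAB core had a median log2 change of 0.07 (quartiles -0.03 and 0.16), with 69 of 100 above 0, 1 gene higher and 1 lower. Genes without it had a median of 0.01 (quartiles -0.09 and 0.09), with 81 of 148 above 0, 3 higher and 5 lower. Of all tested genes, 5071 of 12528 were above 0. Called were 2% of genes with the KRAB core and 5.41% of those without, against 8.53% of all tested genes. With the looser pattern the medians were 0.06 and 0.003. The shift was largest in 1 library. The median deviation of KRAB genes from the control mean was 0.02 in Nex_cKO replicate 1, 0.03 in replicate 2 and 0.18 in replicate 3, the library that stood apart. Genes without the KRAB core had -0.03, -0.005 and 0.03 in the same libraries, and all tested genes -0.04, -0.03 and -0.05. Without Nex_cKO replicate 3 the median of KRAB genes was 0.02, with 56 above 0, and that of all 250 genes was -0.003, with 123 above 0. All tested genes then had -0.04, with 5154 of 12671 above 0, so that KRAB genes stood 0.05 above them, against 0.11 with every library. The medians also moved with the scaling. After quantile normalization they were -0.01 for KRAB genes, -0.01 for all 250 and -0.01 for all tested genes. After median ratio rescaling they were 0.10 for KRAB genes, with 75 of 100 above 0, and 0.07 for all 250, with 173 of 250 above 0. All tested genes had -0.002 after that rescaling, with 6217 of 12528 above 0, so that KRAB genes stood 0.105 above them.

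**Figure D3:**
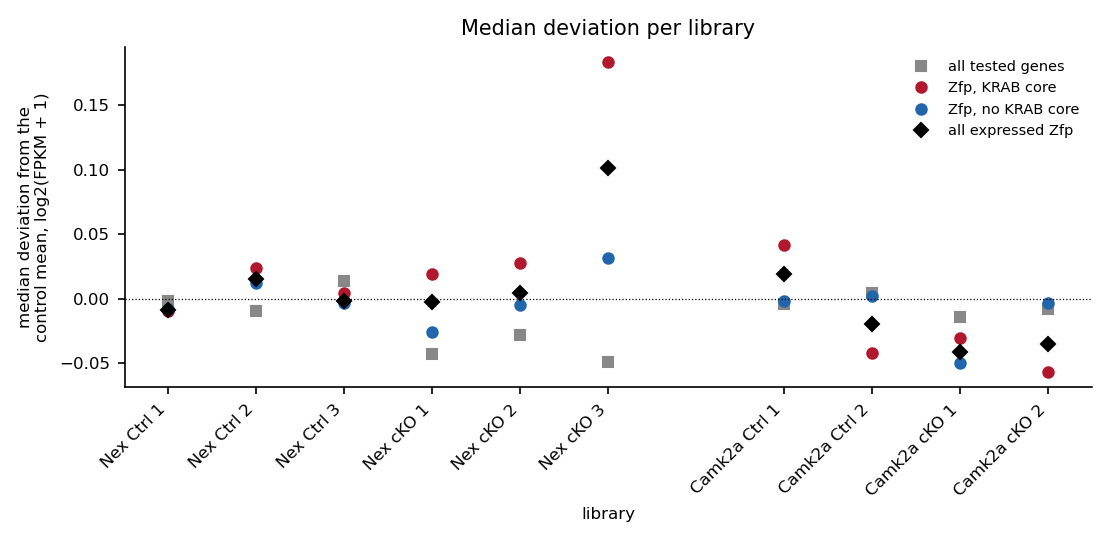
Median deviation of each library from the mean of its model's controls, in log2(FPKM + 1), for all expressed Zfp genes, those with and without a KRAB core, and all tested genes. The KRAB genes of Nex_cKO replicate 3 stand at 0.18, above every other library.

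The 106 clustered genes had 2 higher and 1 lower and a median log2 change of 0.04, with a range of -0.44 to 0.50. The 142 lone genes had 2 higher and 5 lower and a median of 0.03, with a range of -0.54 to 1.71. Called were 2.83% of clustered and 4.93% of lone genes, against 8.53% of all tested genes. All 4 changes beyond 0.5 were in lone genes. Knockout libraries lay wholly below the controls for 4.72% of clustered and 10.6% of lone genes, against 18.9% of all tested genes. The difference between the classes was not tested. Lone genes with the KRAB core had a median of 0.11 over 35 genes, none of them called, and lone genes without it 0.003 over 107.

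Of the 12 clusters with at least 4 expressed genes, 10 had no called gene. The one with the most Zfp genes, on chromosome 13 (67038596 to 67827002), held 23, of which 10 were expressed, all with the KRAB core. Their changes ran from -0.05 to 0.50 with a median of 0.09. Zfp459 there had the largest change, from 0.519, 0.906 and 1.08 FPKM in controls to 1.42, 1.28 and 2.08 FPKM in knockouts, without passing (log2 change 0.50, adjusted p = 0.11). Only 1 control library of Zfp459 reached FPKM 1, so it entered through its knockout libraries and nothing is read from its rise. It also sets the top of the range given for clustered genes. The cluster at 21383748 to 22456689 on chromosome 17 had a median of 0.11 over 8 genes, all with the KRAB core, and that at 32771236 to 33394641, which holds Zfp955b, 0.11 over 8. Without Nex_cKO replicate 3 these 3 medians were 0.09, 0.05 and 0.04.

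On chromosome 7 the largest cluster by expressed genes (29768552 to 30169750, 12 of 15 expressed) had a median of 0.08, which was -0.03 without Nex_cKO replicate 3. A pair of other chromosome 7 clusters had every expressed gene below 0, with none called. At 4915217 to 5053723 the 5 genes had a median of -0.09, led by Zfp579, which was at 9.98, 8.66 and 9.02 FPKM in controls and 7.54, 8.60 and 5.996 FPKM in knockouts (adjusted p = 0.185). At 24081924 to 24587641 the 5 genes had a median of -0.10, led by Zfp428, at 34.1, 28.4 and 36.4 FPKM in controls and 27.4, 29.3 and 17.0 FPKM in knockouts (adjusted p = 0.193). Without Nex_cKO replicate 3, 1 gene of each of these clusters was above 0. Neighbours in a cluster are similar in sequence, and reads shared between them could have been split between rows.

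**Figure D4:**
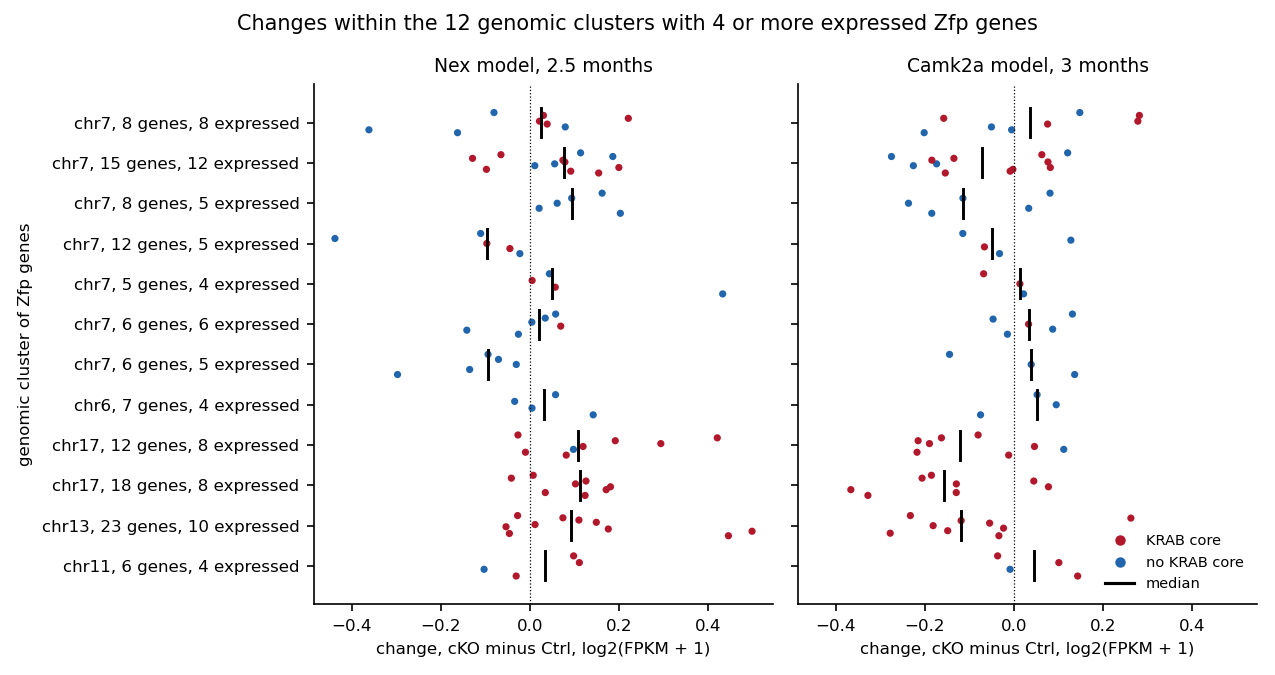
Change in log2(FPKM + 1), cKO minus Ctrl, of each expressed Zfp gene in the 12 genomic clusters with at least 4 of them, in the Nex model (left) and the Camk2a model (right); points are genes, black lines medians. In the chromosome 13 cluster and both chromosome 17 clusters the median is above 0 in the Nex model (0.09 to 0.11) and below 0 in the Camk2a model (-0.16 to -0.12). The chromosome 7 clusters with 5 of 8 genes expressed (0.09 and -0.11) and 12 of 15 expressed (0.08 and -0.07) have the same signs. Without Nex_cKO replicate 3 the Nex medians of all these clusters run from -0.03 to 0.09.

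The second comparison asked the same of deletion in mature excitatory neurons, in libraries that played no part in choosing the genes. In the Camk2a model 231 of the 250 genes reached FPKM 1 in at least 2 of 4 libraries, and none was called in either direction, as was no other gene (0.0% of 12919 tested, limma with Benjamini-Hochberg adjustment). The smallest adjusted p of a Zfp gene was 0.535 and of any gene 0.0632. An unadjusted p under 0.05 was found for 4 of the 231 (1.73%), and for 6.96% of all tested genes. The median 95% interval was ±0.33 around a gene's change. For 172 of the 231, and 8840 of all 12919 tested genes, the interval lay within 0.5 of no change on this scale.

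The 4 genes with an unadjusted p under 0.05 were all lone and without the KRAB core. Zfp804a, whose human counterpart ZNF804A is associated with schizophrenia, was at 3.40 and 3.44 FPKM in controls and 2.44 and 2.02 FPKM in knockouts (log2 change -0.46, SE 0.13, unadjusted p = 0.0111 from limma). Zfp281 was at 14.3 and 13.0 FPKM in controls and 10.4 and 11.3 FPKM in knockouts (log2 change -0.31, unadjusted p = 0.0248 from limma). Zfp385a was at 28.6 and 30.8 FPKM in controls and 38.2 and 34.1 FPKM in knockouts (log2 change 0.27, unadjusted p = 0.0362 from limma). Zfp532 was at 5.37 and 5.03 FPKM in controls and 6.10 and 6.85 FPKM in knockouts (log2 change 0.27, unadjusted p = 0.0487 from limma). In the Nex model Zfp532 was also higher in every knockout library, at 9.14, 9.91 and 9.82 against 12.1, 11.2 and 12.5 FPKM, with a log2 change of 0.29 (adjusted p = 0.0611). A separate row joining Zfp532 with Mir466p was higher there too (0.481 to 2.69 FPKM, log2 change 1.31, adjusted p = 0.00132, limma). The level of Zfp532 alone cannot be read from the joined row.

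The genes called in the Nex model had these values in the Camk2a libraries. Zfp648 was at 2.24 and 1.20 FPKM in controls and 2.23 and 3.52 FPKM in knockouts, a log2 change of 0.52 (SE 0.24) with overlapping groups. Zfp503 was at 0.524 and 1.14 FPKM in controls and 1.25 and 1.58 FPKM in knockouts, a log2 change of 0.42 (SE 0.21). Zfp365 was at 178.5 and 184.8 FPKM in controls and 145.2 and 170.8 FPKM in knockouts, a log2 change of -0.20 (SE 0.11). Each of these 3 had the sign it had in the Nex model, and none passed the threshold. Zfp385b, Zfp395 and Zfp868 were below the controls in both knockout libraries, with changes of -0.19, -0.17 and -0.06. Zfp955b was lower in both knockout libraries (6.95 and 7.23 against 6.79 and 5.70 FPKM, log2 change -0.16), and Zfp110, Zfp598 and Zfp692 had overlapping groups.

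As a whole the family leaned slightly down in the Camk2a model. The median log2 change was -0.04, with 87 of 231 above 0, against -0.01 over all tested genes, with 6142 of 12919 above 0. Genes with the KRAB core had a median of -0.05, with 28 of 91 above 0, and those without -0.03, with 59 of 139 above 0. Both knockout libraries lay below both controls for 59 of the 231 genes (25.5%) and above for 23 (9.96%), where all tested genes gave 21.1% and 16.2%. The medians of the clusters named above were -0.12 on chromosome 13 and -0.16 and -0.12 on chromosome 17. In the chromosome 7 clusters, in the order named, they were -0.07, 0.04 and -0.05. Several of the 12 clusters had a median above 0, the highest 0.05 in the chromosome 6 cluster. The median over the 231 genes ran from -0.06 to -0.02 when 1 library was left out. By library, the median deviation of the family from the control mean was 0.02 and -0.02 in the controls and -0.04 and -0.04 in the knockouts. For KRAB genes it was 0.04 and -0.04 in the controls and -0.03 and -0.06 in the knockouts, which overlap.

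**Figure D5:**
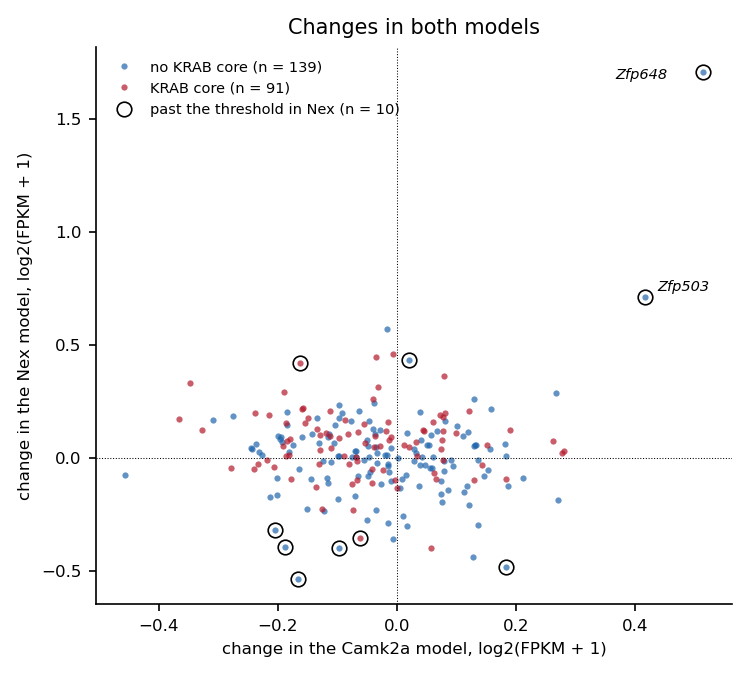
Change in log2(FPKM + 1) in the Camk2a model (horizontal) and the Nex model (vertical) for 231 Zfp genes; circles mark the 10 past the threshold in the Nex model, and 1 gene without a reading frame in the annotation is not drawn. Zfp648 (0.52 and 1.71) and Zfp503 (0.42 and 0.71) lie apart at the upper right.

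The difference of the changes between models, Nex minus Camk2a, was tested for the 231 genes in a fit over 10116 genes. None of the 231 passed, and 0.554% of all genes did (0.386% with the higher and 0.168% with the lower change in the Nex model). An unadjusted p under 0.05 was found for 24 of the 231 (13.4% of all genes). The largest differences by p were those of Zfp955b (0.58, SE 0.16, adjusted p = 0.152) and Zfp648 (1.19, SE 0.33, adjusted p = 0.16), in the limma fit. Age, Cre driver and the tables' gene models differ together between the models. Across the 231 genes the changes in the models had a Pearson r of 0.12 and a Spearman rho of -0.08, a description across genes that share libraries, and 100 had the same sign. Without Nex_cKO replicate 3 the values were 0.18 and 0.0004.

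Partner genes of the KRAB proteins and other zinc finger families were read from the same fits. None of 31 tested corepressor and heterochromatin genes passed in the Nex model and none of 34 in the Camk2a model. Trim28 was at 39.3 ± 0.46 FPKM in Nex controls and 38.9 ± 3.26 in knockouts (SD, n = 3), and Setdb1 at 8.29 ± 0.44 and 7.87 ± 0.71 FPKM. No gene passed among 32 Zbtb genes, which pair zinc fingers with a BTB domain, 17 Zkscan and Zscan genes, 20 Klf and Sp genes and 12 Zc3h genes in the Nex model. The Zdhhc genes, whose zinc-binding domain adds palmitate to proteins and binds no DNA, had none higher and 3 lower of 21 (14.3%, against 8.53% of all tested genes called and 4.06% lower), with a median log2 change of -0.16 and 4 of 21 above 0. These were Zdhhc2 (22.2 to 16.6 FPKM, log2 change -0.41, adjusted p = 0.0177, limma), Zdhhc14 (17.6 to 13.5 FPKM, -0.36, adjusted p = 0.032) and Zdhhc9 (16.9 to 13.4 FPKM, -0.32, adjusted p = 0.0427). None of these families had a called gene in the Camk2a model.

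Levels of the genes in control cortex were alike in order in both tables, which were made with different gene models. Over 249 genes the control means had a Pearson r of 0.83 and a Spearman rho of 0.79 across genes on the log2(FPKM + 1) scale, and the median ratio of Nex to Camk2a level was 1.25 over the 230 with a Camk2a control mean of FPKM 1 or more. Among the genes of largest ratio were Zfp90, at 3.33 to 3.83 FPKM in Nex controls and 0.188 and 0.238 FPKM in Camk2a controls, and Zfp784, at 0.883 to 1.69 FPKM and 0 in both Camk2a controls, chosen here after their values were seen. Summed over the 250 genes, FPKM was 1717 to 1725 in Nex controls and 1641 to 1735 in knockouts, and 1246 and 1268 in Camk2a controls and 1186 and 1222 in knockouts. Zfp365 made up 8.02% to 8.80% of the sum in Nex knockouts.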

How the data were processed

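The authors deposited FPKM values in 2 tables, one per model. Per the submitters' processing notes, cutadapt, STAR, Cufflinks 2.2.1 and DESeq2 were used (roles not given), with builds mm10 and GRCm38. Per the labels' protocols, RNA was isolated with RNAiso Plus, and an NEBNext Ultra II RNA kit was used for the libraries. Gene lengths of the 3-month table gave whole reads for 100% of its values (tolerance 0.1). The authors' counting of reads shared by similar genes is not given in the sources used here.

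For the 47 of the 250 genes with several rows under 1 name, only the row with the highest mean was used. Names joined with others in 1 row (54 Zfp names stood only there) could not be separated. Genes with FPKM of at least 1 in 3 of 6 (Nex) or 2 of 4 (Camk2a) libraries were tested with limma 3.58.1 (R 4.3.3, intensity trend, two-sided) on log2(FPKM + 1), which understates the fold of low genes. Each table was fitted apart, with Benjamini-Hochberg adjustment over all tested genes and a threshold of 0.05. The scripts were tested on simulated data.

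The genes and lists were chosen with earlier results of these data known. Named genes are those past the threshold with groups that do not overlap, those of smallest p in the Camk2a model, the 5 of highest level, the largest change in each cluster with 4 or more members, those at the edge of the choice, and 28 of 36 names listed for a known role that were among the 250. No protein table was at hand, so fingers and the KRAB core were counted in the longest ATG reading frame of GENCODE M21 transcripts. CpG were counted in RefSeq windows. A marker list added after the data were seen is not reported here. The looser KRAB pattern and summing of rows were added after the data were seen. Alternatives were another pseudocount, other filters and scalings, no trend, robust moderation, the replicate number as a block and each library left out in turn.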

Additional observations from a re-analysis of the deposited data

Results flagged for a closer look

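Zfp532 is among the 250 genes by a row of its own, and a further row joins it with Mir466p. This joined row was not used for the 250 genes. The joined row had a mean of 2.693 FPKM in Nex knockouts (2.45, 3.48 and 2.15) against 0.481 FPKM in controls (0.311, 0.671 and 0.461), a signal above the level of the control samples. Its log2 change was 1.31 (SE 0.16, adjusted p = 0.00132, limma).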

How the results depend on the processing

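The 4 higher genes of the Nex model became 1 with a filter of FPKM 5, where 104 genes of the family were tested, and ranged from 2 to 4 when 1 library was left out. They were 3 to 5 with all other settings. The 6 lower genes became 3 with quantile normalization, 2 with median ratio rescaling, 2 with the replicate block and 1 to 5 when 1 library was left out: 1 without Nex_Ctrl replicate 1, Nex_Ctrl replicate 3 or Nex_cKO replicate 1, and 2 without Nex_Ctrl replicate 2. Same-numbered libraries did not deviate together (correlations 0.02, -0.10 and -0.10 in the Nex model), so the block, which left 3 higher and 2 lower, pairs libraries by number only. The cause of these changes was not tested, except that fewer genes are tested under the filter and fewer libraries when 1 is left out. In the Camk2a model no gene was called in any setting, the replicate block included. The difference between models had 0 calls in every setting but 1: without Camk2a_cKO replicate 2, which leaves 1 knockout library assumed to vary like the other groups, Zfp692 was called (-1.13, adjusted p = 0.0202), so the range was 0 to 1. Beyond the calls given above, Zfp189 (block, and without Nex_Ctrl replicate 2), Zfp532 (both rescalings), Zfp759 (no trend) and Zfp941 (without Nex_Ctrl replicate 2) were gained in the Nex model. Of the family's median changes, that of the Nex model turned to -0.01 with quantile normalization and moved to 0.07 with median ratio rescaling, and that of the Camk2a model moved to -0.07 with quantile normalization and -0.06 without Camk2a_Ctrl replicate 2. Over all tested genes the Nex median was -0.01 with quantile normalization and -0.002 with median ratio rescaling. The 2.5-month depth is unknown, and 20 of the 249 genes had under 50 reads in a Camk2a library, which limits what could be called there.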

Other observations

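Rows with Zfp names that were not used for the 250 genes gave further values. Some joined rows hold a name that is also among the 250 genes, such as Zfp532, Zfp81 and Zfp931. Of 45 tested rows that join a Zfp name with other genes, 1 was higher in Nex knockouts (Mir466p with Zfp532, given above) and 2 were lower. Among all tested genes 8.53% were called. The lower rows were Gm16386 with Zfp945 (10.2 to 7.70 FPKM, log2 change -0.37, adjusted p = 0.0335, limma) and Scube3 with Zfp523 (38.1 to 31.1 FPKM, log2 change -0.28, adjusted p = 0.0335). In such a row the level of the Zfp gene alone cannot be read. Of the 55 names below the level of choice, 46 could be tested without a filter, and 1 was called. This was Zfp385c, at 0.026, 0.0287 and 0.0814 FPKM in controls and 0.473, 0.441 and 0.319 FPKM in knockouts (log2 change 0.43, adjusted p = 0.00543). Its relative Zfp385b, of higher level, was among the genes that fell.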
